A study of Mus musculus with 27 samples.

Results

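10 genes of the G1 checkpoint of the cell cycle were followed in fetal mouse brain, namely the D cyclins Ccnd1, Ccnd2 and Ccnd3, the E cyclins Ccne1 and Ccne2, and the cyclin-dependent kinase (CDK) inhibitors Cdkn1a, Cdkn1b, Cdkn1c, Cdkn2c and Cdkn2d. They were taken by symbol from a table of read counts, where 10 of 55416 genes matched and all 10 passed the filter on low counts in every comparison. The study sequenced the polyadenylated RNA of the whole brain of single fetuses from 3 mouse strains on d12, d15 and d17 of gestation, with 3 libraries in each of 9 groups and 27 in all. Day 1 was the day of the vaginal plug, the dams were about 8 weeks old, and the labels give every fetus as female.

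AKR/J is an inbred strain described by the study as short-lived, and C57BL/6J is the long-lived inbred strain against which it was compared. Cav1-null (B6.Cg-Cav1tm1Mls/J) is a congenic strain on a C57BL/6J background that carries a null allele of Cav1, the gene for caveolin-1, and was also described as short-lived. Brains were not split by region, and the labels do not say which fetuses shared a dam, so the p-values below measure only the spread between these samples, part of which may be technical.

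Progress from G1 into S phase is driven by D cyclins bound to Cdk4 or Cdk6 and by E cyclins bound to Cdk2, which phosphorylate the retinoblastoma protein and release E2F transcription factors. The Cip/Kip inhibitors encoded by Cdkn1a (p21), Cdkn1b (p27) and Cdkn1c (p57) bind cyclin-CDK complexes, whereas the INK4 inhibitors encoded by Cdkn2c (p18) and Cdkn2d (p19) bind Cdk4 and Cdk6 themselves. In the developing brain, cyclins are high in dividing progenitors of the ventricular zone and inhibitors are known for their part in the exit of newborn neurons from the cycle.

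The libraries held between 26363697 and 39759702 reads on genes, with a median of 29700746. Cav1, read as a check of the labels, ranged from 9.24 to 34.2 CPM (counts scaled to library size with TMM factors) over the AKR/J libraries, from 10.4 to 39.9 over those of C57BL/6J, and reached no more than 0.509 CPM in Cav1-null. Some libraries carried markers of tissue other than brain. The summed level of 14 erythroid genes ran from 33320 up to 198000 CPM over AKR/J on d12 against 591 to 18640 CPM elsewhere, and 12 connective tissue and cartilage genes reached 5746 CPM in C57BL/6J d15 replicate 1 against 467 and 687 CPM in the other C57BL/6J d15 libraries. The other connective tissue sums above 1000 CPM were those of AKR/J d12 replicates 1 and 3, AKR/J d15 replicate 2, C57BL/6J d12 replicates 2 and 3, C57BL/6J d17 replicate 1 and Cav1-null d12 replicate 3. The library highest in a member was also the one with the highest connective tissue sum in 8 of 9 groups for Ccnd3, 7 for Ccne1 and Cdkn1c, 6 for Cdkn1a and between 1 and 5 for the others. It was the one with the highest mitochondrial share of reads in 8 of 9 groups for Ccne2 and in 1 to 4 for the other members.

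The members lie on 5 chromosomes of GRCm39, in the GENCODE M39 annotation. On chromosome 7 are Ccnd1 (144483668 to 144493662, minus strand), Ccne1 (37797404 to 37808264, minus) and Cdkn1c (143012069 to 143014806, minus). Chromosome 6 holds Ccnd2 (127102125 to 127129156, minus) and Cdkn1b (134897364 to 134902476, plus), and chromosome 17 holds Ccnd3 (47815767 to 47910624, plus) and Cdkn1a (29309936 to 29319701, plus). Ccne2 (11190303 to 11204947, plus) and Cdkn2c (109517957 to 109524386, minus) are on chromosome 4, and Cdkn2d (21199700 to 21202727, minus) is on chromosome 9. All 10 share bases with another annotated gene, so a part of their counts could belong to a neighbour. The annotation also holds Ccnd3-ps, a processed pseudogene whose reads could be split with those of Ccnd3.

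Per length of all annotated exons of a gene, in CPM per kilobase of exon (RPKM), the order of the members changed between d12 and d17. This length ran from 1662 bases for Cdkn2d to 9409 for Ccnd2. It can exceed that of the transcripts present, so ranks between genes depend on it. Cdkn1c was the highest on d12 in each strain, at 56.3 ± 14.1 RPKM (mean ± SD, n = 3) in AKR/J, 68.4 ± 23.6 RPKM in C57BL/6J and 50.99 ± 22.8 RPKM in Cav1-null. Ccnd2 came next at 38.3 ± 2.89, 65.7 ± 11.6 and 44.96 ± 15.1 RPKM, and in the latter 2 strains it differed from Cdkn1c by less than the SD of Cdkn1c. Cdkn1a was the lowest of the 10 on d12 in all 3 strains, at 1.33 ± 0.580, 2.40 ± 0.461 and 1.90 ± 0.118 RPKM.

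By d17 Cdkn1b and Cdkn2d had the highest means in each strain. Cdkn1b was at 24.3 ± 2.37 RPKM in AKR/J, 21.9 ± 3.99 RPKM in C57BL/6J and 18.4 ± 0.662 in Cav1-null, and Cdkn2d at 18.9 ± 1.53, 19.3 ± 2.61 and 18.4 ± 0.539. These 2 differed by less than the SD of Cdkn1b in C57BL/6J and Cav1-null, and in C57BL/6J Ccnd2 at 18.8 ± 6.60 and Cdkn1c at 17.8 ± 7.57 RPKM were not apart from them by more than the spread. Cdkn1a had moved to the fifth place in each strain, at 3.83 ± 0.462, 5.64 ± 1.93 and 4.77 ± 1.04 RPKM, though within its SD of Ccnd1 in AKR/J and C57BL/6J. Ccne1, at 1.61 ± 0.0746, 1.69 ± 0.267 and 1.18 ± 0.0742 RPKM, and Cdkn2c, at 1.57 ± 0.497, 1.47 ± 0.296 and 1.12 ± 0.294 RPKM, were the lowest means and differed by less than the SD of Cdkn2c in each strain.

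The first question was how the members changed within each strain over the early phase (d12 to d15) and the late phase (d15 to d17). A member was called where edgeR's quasi-likelihood test gave a Benjamini-Hochberg adjusted p under 0.05 over all genes tested, 3 libraries against 3. In AKR/J early, 4 members were lower, where 14.0% of all genes were called lower, and 0 higher, where 14.8% were called higher (28.9% in either direction). In AKR/J late, 5 were lower (10.4% of all genes) and 1 higher (11.6%, 22.1% in either direction). In C57BL/6J early, 2 were lower (7.8%) and 0 higher (7.08%, 14.9% in either direction), and late, 4 were lower (5.58%) and 0 higher (7.46%, 13.0% in either direction). In Cav1-null early, 6 were lower (11.8%) and 0 higher (11.6%, 23.4% in either direction), and late, 6 were lower (12.8%) and 1 higher (14.5%, 27.3% in either direction). Of the 29 calls in these 6 comparisons, 27 were decreases and both increases were of Cdkn1a. In the same comparisons the libraries of the 2 days did not overlap for 40.9% to 47.5% of all genes. Lack of overlap is therefore given below only as a description.

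These counts moved when 1 library was left out. The share of all genes called in the same fit, given in brackets, moved too. The 4 early calls of AKR/J became 2 without d15 replicate 1 (13.7% of all genes), and the 6 late ones became 2 without d17 replicate 2 (7.58%) and 3 without d17 replicate 3 (8.32%). The 2 early calls of C57BL/6J became 0 without any one of its 3 d15 libraries (0.0% to 0.0303%). Its 4 late calls became 0 without d15 replicate 1 (1.77%), d15 replicate 2 (1.29%) or d17 replicate 3 (0.767%), and 1 without d15 replicate 3 (3.79%). The 6 early calls of Cav1-null became 3 without d15 replicate 1 (11.7%) or d15 replicate 3 (12.3%) and 9 without d12 replicate 3 (35.9%), while its 7 late calls ran between 6 and 8 (18.9% to 25.5%). With all 27 libraries in 1 edgeR model, 2 of those 7 late calls of Cav1-null were left, Ccne1 and Cdkn1a, where 3.56% of all genes were called. With library sizes alone in place of TMM scaling, the early AKR/J count was 1 lower (Ccne2) and 1 higher (Cdkn1a), where 24.1% of all genes were called.

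**Figure D1:**
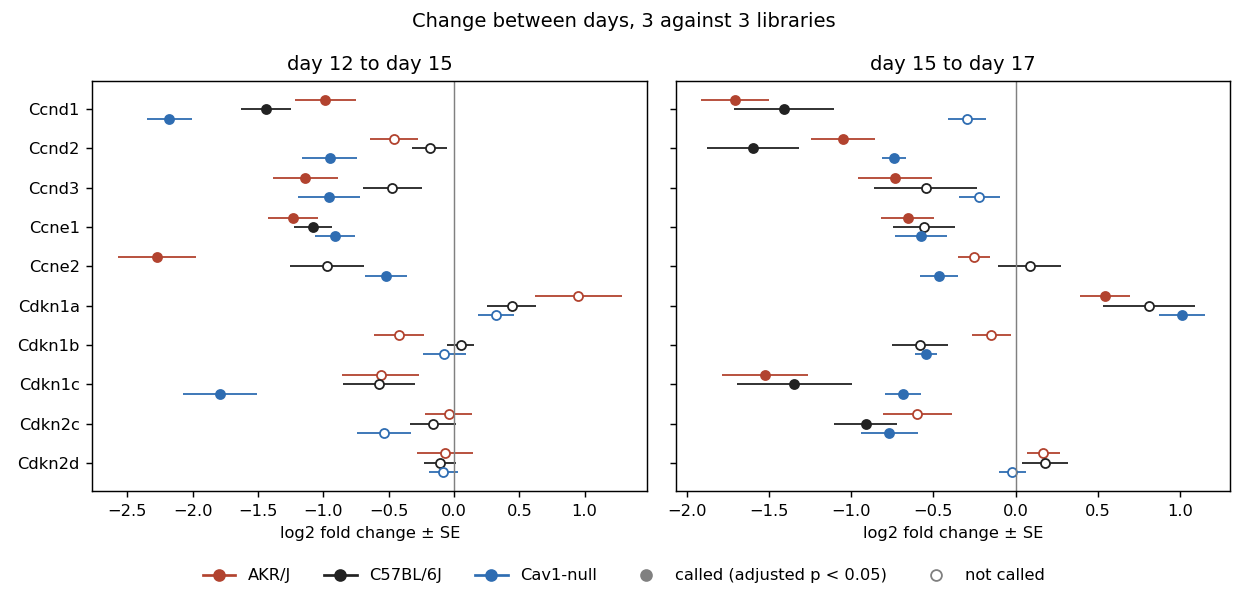
Log2 fold change ± SE of the 10 members from d12 to d15 (left) and from d15 to d17 (right) in AKR/J (red), C57BL/6J (black) and Cav1-null (blue), 3 libraries against 3. Filled points passed the edgeR test and open points did not. All filled points lie left of 0 except Cdkn1a in the late phase, and Cdkn2d has no filled point. With library sizes alone, the early AKR/J calls of Ccnd1, Ccnd3 and Ccne1 are lost.

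Ccnd1, which couples mitogen signals to Cdk4 and Cdk6, was called lower in 5 of the 6 comparisons of days, the most of any member together with Ccne1. In AKR/J it stood at 86.3, 129 and 125 CPM on d12, 44.01, 61.9 and 71.7 on d15 and 22.4, 14.8 and 16.6 on d17. In C57BL/6J it stood at 127, 166 and 204 CPM on d12, 72.5, 61.3 and 56.1 on d15 and 31.9, 13.3 and 23 on d17. In Cav1-null it stood at 94.9, 108 and 68.3 CPM on d12, 22.8, 19.8 and 17.1 on d15 and 16.3, 15.8 and 16.4 on d17. The 3 days did not overlap within any strain, although the Cav1-null d15 and d17 libraries lay close together, from 15.8 to 22.8 CPM. The mean was 6.32 times as high on d12 as on d17 in AKR/J, 7.28 times in C57BL/6J and 5.59 times in Cav1-null.

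The step at which Ccnd1 fell was read from the fitted changes. The early log2 fold change was -0.99 ± 0.23 (edgeR adjusted p = 0.016) in AKR/J, -1.44 ± 0.19 (edgeR adjusted p = 0.0162) in C57BL/6J and -2.18 ± 0.17 (edgeR adjusted p = 0.00018) in Cav1-null. The late log2 fold change was -1.71 ± 0.21 (edgeR adjusted p = 0.00151) in AKR/J and -1.41 ± 0.30 (edgeR adjusted p = 0.0268) in C57BL/6J, and -0.30 ± 0.11 (edgeR adjusted p = 0.0723) in Cav1-null, where it was not called, and passed without d15 replicate 3 (-0.39, edgeR adjusted p = 0.0238). The late change of Cav1-null minus that of C57BL/6J, the interaction of strain and day, was 1.08 ± 0.34 (edgeR adjusted p = 0.112), which did not pass the threshold. The early AKR/J call was lost without d12 replicate 3 or d15 replicate 1 (edgeR adjusted p = 0.0576 and 0.0763) and with library sizes alone (0.243), and the early C57BL/6J call without any one of the d15 libraries (0.0745 to 0.107). The late C57BL/6J call was lost without any one of the d15 libraries or d17 replicate 3 (edgeR adjusted p = 0.0702 to 0.121).

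Ccnd2, the D cyclin of dividing cortical progenitors, was the most abundant cyclin per length in every group. In AKR/J it stood at 341, 392 and 349 CPM on d12, 298, 237 and 278 on d15 and 171, 123 and 94.6 on d17. In C57BL/6J it stood at 559, 744 and 553 CPM on d12, 576, 599 and 506 on d15 and 235, 112 and 184 on d17. In Cav1-null it stood at 551, 447 and 271 CPM on d12, 234, 215 and 205 on d15 and 124, 132 and 134 on d17. The C57BL/6J libraries kept their high level to d15 and then dropped, with overlap between d12 and d15 and none between d15 and d17, whereas the Cav1-null libraries had already dropped by d15.

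In the late phase Ccnd2 was called lower in all 3 strains, with log2 fold changes of -1.05 ± 0.19 (edgeR adjusted p = 0.00751) in AKR/J, -1.59 ± 0.28 (edgeR adjusted p = 0.0152) in C57BL/6J and -0.74 ± 0.08 (edgeR adjusted p = 1.31e-05) in Cav1-null. In the early phase it was called lower only in the Cav1-null comparison, at -0.95 ± 0.21 (edgeR adjusted p = 0.0129), and was -0.46 ± 0.19 (edgeR adjusted p = 0.1) in AKR/J and -0.19 ± 0.14 (edgeR adjusted p = 0.359) in C57BL/6J. The difference between the Cav1-null and C57BL/6J early changes was -0.81 ± 0.30 (edgeR adjusted p = 0.26) and that between their late changes 0.83 ± 0.29 (edgeR adjusted p = 0.14), neither past the threshold. The early Cav1-null call was lost when any one of its d15 libraries was left out (edgeR adjusted p = 0.0507 to 0.0697), the late AKR/J call without d17 replicate 2 (0.0523), the late Cav1-null call with all 27 libraries in 1 model (0.0864), and the late C57BL/6J call without d15 replicate 1, d15 replicate 2 or d17 replicate 3 (0.0654 to 0.0877). Without d12 replicate 2 the early AKR/J change was a call (-0.42, edgeR adjusted p = 0.0214).

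Ccnd3 ran at a lower level, between 13.4 and 77.7 CPM over the 27 libraries. It was 61.1, 52.6 and 77.7 CPM on d12, 23.3, 40.6 and 25.9 on d15 and 21.4, 16.7 and 15.4 on d17 in AKR/J and 43.4, 53.95 and 68.8 CPM on d12, 52.4, 35.2 and 36.4 on d15 and 37.6, 16.3 and 27.3 on d17 in C57BL/6J. In Cav1-null it was 29.2, 23.9 and 45.6 CPM on d12, 16.8, 19.8 and 14.6 on d15 and 15.6, 13.4 and 14.9 on d17. It was called lower in AKR/J in both phases, at -1.14 ± 0.25 (edgeR adjusted p = 0.0119) and -0.73 ± 0.22 (edgeR adjusted p = 0.0475), and in Cav1-null in the early phase, at -0.95 ± 0.24 (edgeR adjusted p = 0.0204). In C57BL/6J its libraries overlapped between neighbouring days and it was -0.47 ± 0.22 (edgeR adjusted p = 0.175) early and -0.55 ± 0.31 (edgeR adjusted p = 0.26) late. In 8 of 9 groups, all but AKR/J d12, the library with the most Ccnd3 was the one with the highest connective tissue sum, and the part of that tissue in the Ccnd3 level was not tested. The early AKR/J call was lost without d15 replicate 1 or 3 (edgeR adjusted p = 0.0572 and 0.0617) and with library sizes alone (0.131), and the early Cav1-null call without d15 replicate 1 or 3 (0.0794 and 0.0962). The late AKR/J call was lost without d15 replicate 2 or any one of the d17 libraries (edgeR adjusted p = 0.0528 to 0.183), and with all 27 libraries in 1 model (0.0911). Without AKR/J d15 replicate 2 the late AKR/J change was -0.44 (edgeR adjusted p = 0.0642), and without Cav1-null d12 replicate 3 the early Cav1-null change was -0.63 (0.00174).

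**Figure D2:**
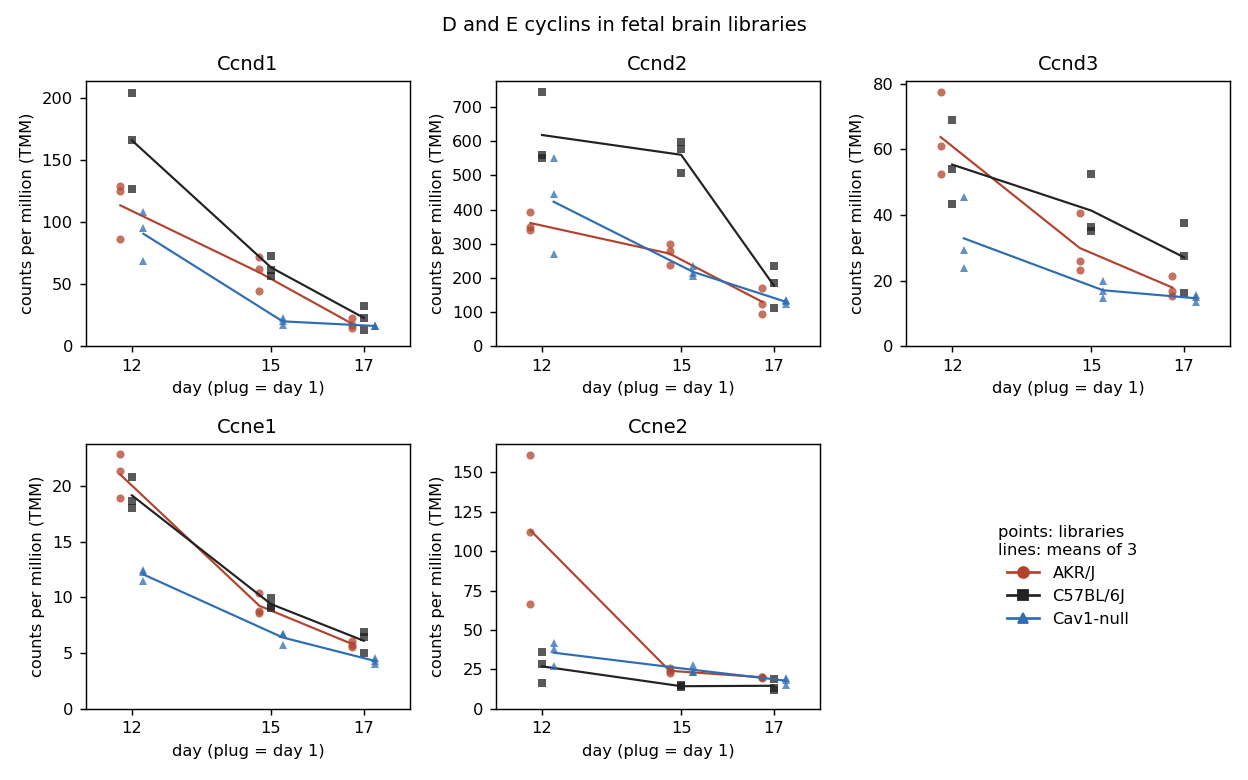
CPM, scaled by TMM, of the 5 cyclins in each of the 27 libraries (points) and the mean of 3 (lines) by gestational day, with the strains set slightly apart within a day. The mean of each D cyclin and of Ccne1 is highest on d12 in each strain, and Ccne2 lies between 66.5 and 161 CPM in AKR/J on d12, against 41.8 CPM or less in every other library.

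The 3 D cyclins share the boundary between their first and their second coding exon, and reads across it come from spliced RNA. The windows below are shown because the exonic bases are nearly the same in the 3 genes while the introns differ. Each holds 12 bases of exon 1 followed by 12 of intron 1 on the transcribed strand of GRCm39, with the first 2 bases of the intron in capitals.
Ccnd1, chr7:144493221-144493244, minus strand: tggatgctggagGTaagagacttt
Ccnd2, chr6:127127533-127127556, minus strand: tggatgctagagGTaggtgtgcgg
Ccnd3, chr17:47904766-47904789, plus strand: tggatgctggagGTaaggcccgaa

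The 12 exonic bases were identical in Ccnd1 and Ccnd3 and shared 11 of 12 with Ccnd2, while the 12 intronic bases shared 4 to 6. Across this boundary of Ccnd1 the junction reads were 306, 436 and 456 in the C57BL/6J d12 libraries, 211, 153 and 126 on d15 and 74, 21 and 59 on d17. In Cav1-null they were 185, 255 and 180 on d12, 45, 39 and 27 on d15 and 17, 28 and 28 on d17. In CPM of all junction reads, the AKR/J means were 63.7 ± 26.04 on d12, 38.9 ± 11.6 on d15 and 11.5 ± 5.57 on d17 (SD, n = 3). In all 3 strains the means of the spliced reads ran in the same order of days as the gene counts. Of the exonic bases of Ccnd1, 2315 lie over LTO1 on the opposite strand, and the strand setting of the gene counts is not given in the sources used here.

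The final intron of Ccnd1 ended at either of 2 acceptors 66 bases apart, both in coding sequence. They are shown with the last 2 bases of the intron in capitals, 12 bases of intron and 12 of exon.
Major acceptor, chr7:144486497-144486520, minus strand: ccgcctctccAGgactgcctccgt
Minor acceptor, chr7:144486563-144486586, minus strand: cctgcctcgcAGgtcaaggccctg

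The major acceptor, which gives the shorter exon, took 87.1% to 97.8% of the 3675 reads in the 23 libraries with reads at both, with a median of 94.1%. Its share was 91.2% ± 1.91 in AKR/J d12, 94.5% ± 2.20 in C57BL/6J d12 and 94.7% ± 1.40 in Cav1-null d12 (SD, n = 3). The libraries of AKR/J d12 ran from 89.6% to 93.3% and overlapped those of C57BL/6J d12, which ran from 92.3% to 96.7%.

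Ccne1, the E cyclin that activates Cdk2 late in G1, was called lower in 5 of 6 comparisons of days. AKR/J libraries held 22.9, 18.9 and 21.3 CPM on d12, 8.61, 10.4 and 8.79 on d15 and 5.77, 6.11 and 5.58 on d17. C57BL/6J libraries held 18.7, 18.04 and 20.8 CPM on d12, 9.995, 9.03 and 9.20 on d15 and 6.89, 5.03 and 6.42 on d17. Cav1-null libraries held 12.3, 11.5 and 12.4 CPM on d12, 6.73, 6.75 and 5.76 on d15 and 4.01, 4.30 and 4.55 on d17. No 2 neighbouring days overlapped in any strain. The early log2 fold changes were -1.23 ± 0.19 (edgeR adjusted p = 0.00376) in AKR/J, -1.08 ± 0.14 (edgeR adjusted p = 0.0162) in C57BL/6J and -0.91 ± 0.16 (edgeR adjusted p = 0.0042) in Cav1-null. The late ones were -0.66 ± 0.16 (edgeR adjusted p = 0.0229) in AKR/J and -0.58 ± 0.16 (edgeR adjusted p = 0.016) in Cav1-null, and -0.56 ± 0.19 (edgeR adjusted p = 0.0892) in C57BL/6J, the comparison without a call, which passed without d17 replicate 1 (-0.66, edgeR adjusted p = 0.0437) and with all 27 libraries in 1 model (-0.62, 0.00384). With library sizes alone the early AKR/J call was lost (edgeR adjusted p = 0.0636). The late AKR/J call was lost without any one of the d17 libraries (edgeR adjusted p = 0.0532 to 0.0956), the late Cav1-null call without d15 replicate 1 or 2 (0.0557 and 0.063), and the early C57BL/6J call without any one of the d15 libraries (0.0745 to 0.107).

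Ccne2, the second E cyclin, followed another course. In AKR/J it stood at 161, 66.5 and 113 CPM on d12, 22.7, 25.8 and 23.9 on d15 and 19.7, 20 and 20.3 on d17. In C57BL/6J it stood at 28.4, 16.6 and 35.8 CPM on d12, 15.2, 13.7 and 14.2 on d15 and 11.96, 18.96 and 12.95 on d17. In Cav1-null it stood at 38.1, 41.8 and 26.9 CPM on d12, 23.3, 23.2 and 27.9 on d15 and 19.7, 15.4 and 18.5 on d17. The 3 AKR/J d12 libraries lay above all 24 others, whose highest value was 41.8 CPM, and they differed among themselves by more than any other group. The early log2 fold change was -2.28 ± 0.30 (edgeR adjusted p = 0.00215) in AKR/J, -0.97 ± 0.28 (edgeR adjusted p = 0.057) in C57BL/6J and -0.52 ± 0.16 (edgeR adjusted p = 0.0462) in Cav1-null. The AKR/J change was -1.73 with library sizes alone and -1.93 without d12 replicate 1, still called in both. The AKR/J d12 libraries carried erythroid sums of 33320 to 198000 CPM and mitochondrial shares of 3.98% to 9.595%, against 2039 to 3114 CPM and 2.26% to 2.69% on d15, and the part of these in the change was not tested. The C57BL/6J change was called by the likelihood ratio test (adjusted p = 0.0138), by DESeq2 (0.0067), with no filter on low counts (0.0346), with all 27 libraries in 1 model (0.0172) and without d12 replicate 2 (-1.24, edgeR adjusted p = 0.00687). In the late phase it was called in Cav1-null, at -0.47 ± 0.12 (edgeR adjusted p = 0.00898), and was -0.26 ± 0.10 (edgeR adjusted p = 0.099) in AKR/J and 0.09 ± 0.19 (edgeR adjusted p = 0.782) in C57BL/6J. The early Cav1-null call was lost in 5 of 6 fits with 1 library left out (edgeR adjusted p = 0.0759 to 0.162) and with all 27 libraries in 1 model (0.191), and kept without d12 replicate 3. The late Cav1-null call was lost with all 27 libraries in 1 model (edgeR adjusted p = 0.36).

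The spliced RNA of Ccne2 was also highest in AKR/J d12. The boundary below, between 2 coding exons on the plus strand of GRCm39, is shown because Ints8 overlaps Ccne2 over 852 exonic bases on the opposite strand and spliced reads carry the strand in the bases at the ends of the intron. Capitals mark the first and the last 2 bases of the intron.
Ccne2 donor, chr4:11193035-11193058: tatgagattaggGTaatgcagaac
Ccne2 acceptor, chr4:11193914-11193937: ttgaaatgacAGaattgttggcca

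Reads across this boundary numbered 301, 145 and 186 in AKR/J d12, against 65, 43 and 82 in C57BL/6J d12 and 73, 76 and 61 in Cav1-null d12. In CPM of all junction reads these were 69.2 ± 23.1, 15.8 ± 5.80 and 18.4 ± 2.91 (SD, n = 3). As in the gene counts, the 3 AKR/J libraries lay above the other 6.

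The 3 Cip/Kip inhibitors differed in their course. Cdkn1a, the p53 target known for arresting cells in G1, gave the only called increases among the members. AKR/J libraries stood at 11.7, 7.60 and 4.72 CPM on d12, 15.3, 18.8 and 13.9 on d15 and 20.8, 22.4 and 26.2 on d17. C57BL/6J libraries stood at 13.3, 17.7 and 12.6 CPM on d12, 23.6, 16.6 and 20.7 on d15 and 44.5, 21.5 and 36.3 on d17. Cav1-null libraries stood at 10.96, 11.1 and 12.3 CPM on d12, 14.8, 15.4 and 12.8 on d15 and 24.5, 35.99 and 25.95 on d17. In each strain the d17 mean was above the d12 mean, 2.89 times in AKR/J, 2.35 times in C57BL/6J and 2.52 times in Cav1-null, and the d12 and d17 libraries did not overlap.

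Cdkn1a was called higher in the late phase in AKR/J, at 0.54 ± 0.15 (edgeR adjusted p = 0.0352), and in Cav1-null, at 1.01 ± 0.14 (edgeR adjusted p = 0.000167). In C57BL/6J the late change was 0.81 ± 0.28 (edgeR adjusted p = 0.0916), with d17 replicate 2 at 21.5 CPM among the d15 libraries, and it passed without that library at 1.07 (edgeR adjusted p = 0.0149). It was also a call by the likelihood ratio test (adjusted p = 0.0402), with library sizes alone (0.042) and with all 27 libraries in 1 edgeR model (0.0407). The early changes were 0.95 ± 0.33 (edgeR adjusted p = 0.0648) in AKR/J, 0.44 ± 0.19 (edgeR adjusted p = 0.135) in C57BL/6J and 0.32 ± 0.14 (edgeR adjusted p = 0.131) in Cav1-null, all without a call by this test. The early AKR/J one was a call in 5 of 9 other settings, with an adjusted p of 0.0399 by the likelihood ratio test, 0.0281 by DESeq2, 0.0328 with library sizes alone, 0.0304 with no filter on low counts and 0.00376 with all 27 libraries in 1 edgeR model. It also passed without d12 replicate 1 (1.33, edgeR adjusted p = 0.026), and the early Cav1-null one without d12 replicate 3 (0.38, 0.0397). The late AKR/J call was lost in 5 of 6 fits with 1 library left out (edgeR adjusted p = 0.0557 to 0.172), with library sizes alone (0.052) and with all 27 libraries in 1 model (0.209), while the Cav1-null one held in all 6 and in these 2 settings.

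Cdkn1b, whose protein p27 is abundant in neurons that have left the cycle, varied over a narrower range. AKR/J libraries were at 187, 139.6 and 155 CPM on d12, 134, 102 and 135 on d15 and 118, 116 and 98 on d17. C57BL/6J libraries were at 152, 156 and 129.9 CPM on d12, 153, 168 and 148 on d15 and 116, 79.9 and 103 on d17. Cav1-null libraries were at 140, 156 and 91.6 CPM on d12, 121, 120 and 126 on d15 and 80.3, 84.2 and 86.2 on d17. It was called lower once, in the late phase of Cav1-null, at -0.54 ± 0.07 (edgeR adjusted p = 7.52e-05), where all 3 d17 libraries lay below all 3 d15 libraries, and this call was lost with all 27 libraries in 1 model (edgeR adjusted p = 0.0668). The late C57BL/6J change of -0.58 ± 0.17 (edgeR adjusted p = 0.0621) was of like size, with no overlap and no call, and passed without d17 replicate 1 (-0.71, edgeR adjusted p = 0.0128) or d17 replicate 2 (-0.44, 0.0463), by the likelihood ratio test (0.0291), by DESeq2 (0.0227) and with all 27 libraries in 1 model (0.00808). The early changes ran from -0.42 ± 0.19 in AKR/J (edgeR adjusted p = 0.134) to 0.05 ± 0.10 in C57BL/6J (adjusted p = 0.756). The early AKR/J value turned to 0.05 with library sizes alone (edgeR adjusted p = 0.882) and was a call without d12 replicate 2 (-0.54, 0.0232), as was the early Cav1-null one without d12 replicate 3 (-0.27, 0.0246).

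Cdkn1c, an imprinted inhibitor needed for the timely exit of progenitors from the cycle, was lowest on d17. AKR/J libraries stood at 118, 92.7 and 153 CPM on d12, 52.5, 113 and 89.6 on d15 and 34.6, 24.2 and 28.8 on d17. C57BL/6J libraries stood at 91.3, 161 and 190 CPM on d12, 128, 87.99 and 90.3 on d15 and 50.2, 19.8 and 45.2 on d17. Cav1-null libraries stood at 70.5, 94.2 and 165 CPM on d12, 33.9, 34.4 and 27.4 on d15 and 18.3, 19.99 and 20.99 on d17. The d17 libraries were the lowest of each strain and overlapped no library of d12 or d15, whereas d12 and d15 overlapped in AKR/J and C57BL/6J. Replicates differed widely on d12, by more than 2-fold in C57BL/6J and Cav1-null.

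Cdkn1c was called lower in the late phase in all 3 strains, at -1.53 ± 0.26 (edgeR adjusted p = 0.00547) in AKR/J, -1.35 ± 0.35 (edgeR adjusted p = 0.0454) in C57BL/6J and -0.68 ± 0.11 (edgeR adjusted p = 0.000415) in Cav1-null. In the early phase it was called in Cav1-null, at -1.79 ± 0.28 (edgeR adjusted p = 0.00304), and was -0.56 ± 0.29 (edgeR adjusted p = 0.188) in AKR/J and -0.57 ± 0.28 (edgeR adjusted p = 0.183) in C57BL/6J. In 7 of 9 groups, all but AKR/J d12 and Cav1-null d17, the library with the most Cdkn1c was the one with the highest connective tissue sum, and the part of that tissue in these changes of Cdkn1c was not tested. Without Cav1-null d12 replicate 3, which held 165 CPM of Cdkn1c and a connective tissue sum of 1406 CPM against 375 and 261, the early Cav1-null change was -1.36 (edgeR adjusted p = 2.5e-07). The late C57BL/6J call was lost without any one of the d15 libraries or d17 replicate 3 (edgeR adjusted p = 0.102 to 0.144), and the late Cav1-null call with all 27 libraries in 1 model (0.292). The early change of Cav1-null minus that of C57BL/6J was -1.23 ± 0.43 (edgeR adjusted p = 0.246).

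The coding exon of Cdkn1c was spliced from 2 donors 36 bases apart to a shared acceptor at 143012988 on chromosome 7. Both donors are annotated within coding sequence and 36 is a multiple of 3. The windows are shown as the best covered pair of alternative sites among the members, with 12 exonic and 12 intronic bases and the first 2 intronic bases in capitals.
Upstream donor, chr7:143013520-143013543, minus strand: ccaatgcgaacgGTgcgatcaaga
Downstream donor, chr7:143013484-143013507, minus strand: ctctcatctccgGTgagccccgca
Shared acceptor, chr7:143012976-143012999, minus strand: tgtcgcccgcAGacttcttcgcca

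The downstream donor, which lengthens the exon, took 30.6% of the reads in the median library and between 14.3% and 36.2% over all 27, from 12589 reads in all. Its share was 30.9% ± 3.06 on d12, 32.1% ± 2.80 on d15 and 31.8% ± 1.43 on d17 in C57BL/6J. In AKR/J it was 32.3% ± 3.46, 29.2% ± 2.72 and 28.0% ± 3.83, and in Cav1-null 29.2% ± 2.52, 27.2% ± 3.34 and 27.3% ± 11.5 (SD, n = 3). The 9 group means thus ran from 27.2% to 32.3%, a narrow range beside that of the Cdkn1c level, and were not tested. The lowest and the highest library, at 14.3% and 36.2%, were Cav1-null d17 replicates 1 and 2.

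**Figure D3:**
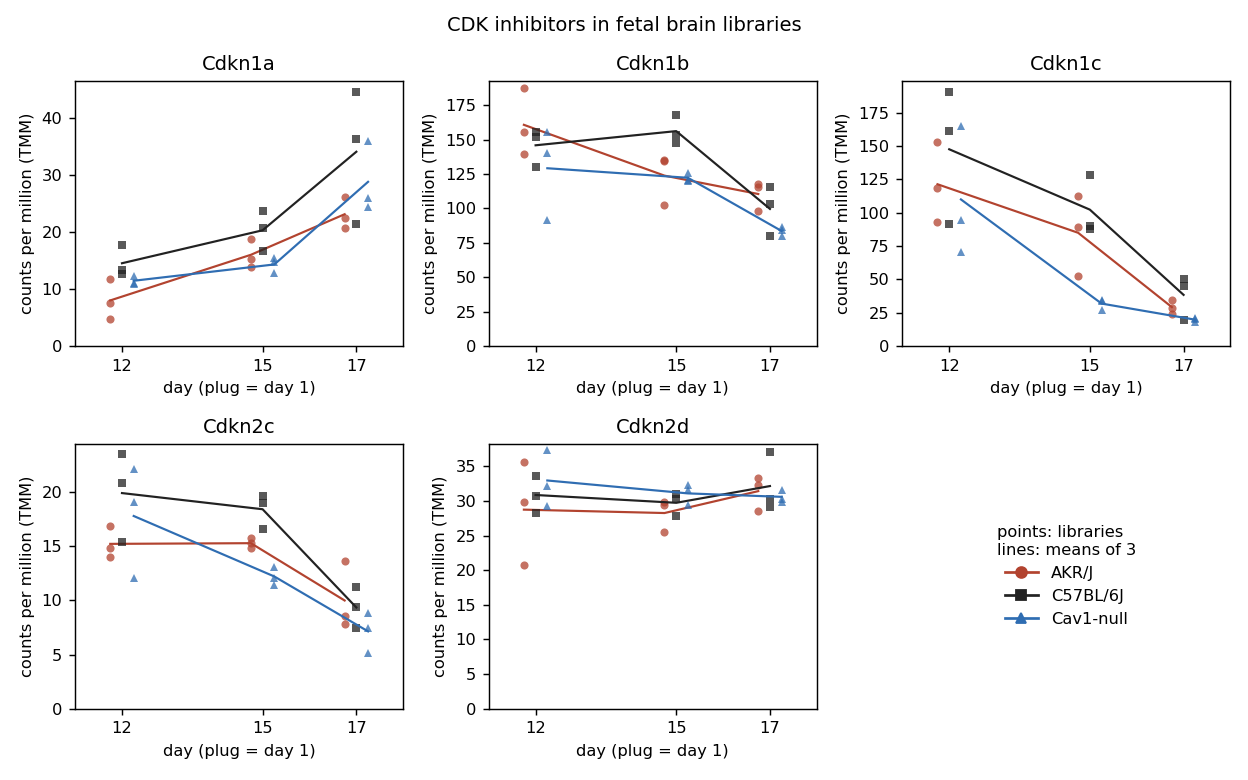
CPM, scaled by TMM, of the 5 CDK inhibitors in each of the 27 libraries (points) and the mean of 3 (lines) by gestational day, with the strains set slightly apart within a day. Cdkn1a is highest on d17, Cdkn1c and Cdkn2c are lowest on d17, and Cdkn2d stays between 20.8 and 37.4 CPM.

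The INK4 genes differed from each other as well. Cdkn2c, which inhibits Cdk4 and Cdk6 in cycling neural precursors, stood at 16.8, 13.98 and 14.8 CPM on d12, 14.8, 15.7 and 15.3 on d15 and 13.6, 8.53 and 7.81 on d17 in AKR/J. C57BL/6J libraries gave 23.5, 20.8 and 15.3 CPM on d12, 16.6, 19.6 and 18.99 on d15 and 11.2, 7.43 and 9.39 on d17. Cav1-null libraries gave 22.2, 19.1 and 12.1 CPM on d12, 13.1, 12.04 and 11.5 on d15 and 7.49, 5.12 and 8.81 on d17. The d17 libraries lay below those of d15 in each strain. The late changes were called in C57BL/6J, at -0.91 ± 0.19 (edgeR adjusted p = 0.0259), and in Cav1-null, at -0.77 ± 0.17 (edgeR adjusted p = 0.00469), and not in AKR/J, at -0.60 ± 0.21 (edgeR adjusted p = 0.0748), where it passed without d17 replicate 1 (-0.90, edgeR adjusted p = 0.00853), by DESeq2 (-0.61, 0.0243) and with no filter on low counts (-0.63, 0.0463). The late Cav1-null call was lost with all 27 libraries in 1 model (edgeR adjusted p = 0.0698). The late C57BL/6J call was lost without any one of the d15 libraries or d17 replicate 3 (edgeR adjusted p = 0.0819 to 0.113). The largest early change was -0.54 ± 0.21 (edgeR adjusted p = 0.0933) in Cav1-null, without a call by edgeR. DESeq2 called it (-0.55, adjusted p = 0.0337), as did edgeR without d12 replicate 3 (-0.75, adjusted p = 0.000225).

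Cdkn2d, the INK4 gene retained in postmitotic neurons, had the narrowest relative range. It ran from 20.8 to 37.4 CPM over the 27 libraries, and its 9 group means from 28.3 to 32.9 CPM. Its changes between days lay between -0.11 ± 0.12 in C57BL/6J early and 0.18 ± 0.14 in C57BL/6J late, and the smallest edgeR adjusted p among the 6 was 0.262. The SEs of these changes ran from 0.08 to 0.22 on the log2 scale, and a p that misses the threshold does not show that the level was constant.

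The mix within each family is given as shares of summed RPKM, a description with no test that depends on the same annotated exon lengths. Ccnd1 made up 34.1% ± 3.89 of the D cyclins in AKR/J on d12, 27.8% ± 5.72 on d15 and 19.6% ± 2.93 on d17 (SD, n = 3). In C57BL/6J its share was 32.5% ± 5.78, 17.1% ± 1.27 and 17.7% ± 0.869, and in Cav1-null 28.4% ± 3.59, 14.2% ± 0.960 and 18.01% ± 0.569. Ccnd2 held over 50% throughout, from 51.8% in AKR/J d12 replicate 3 to 80.9% in Cav1-null d15 replicate 3. The Ccnd1 share was lower on d15 than on d12 without overlap in C57BL/6J and Cav1-null, and on d17 than on d12 without overlap in AKR/J.

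Among the E cyclins, Ccne2 made up 76.2% ± 6.34 in AKR/J d12 and 46.5% ± 8.11 in C57BL/6J d12, without overlap. Its share in Cav1-null was 65.0% ± 6.10 on d12, 71.2% ± 3.89 on d15 and 72.7% ± 3.15 on d17. In C57BL/6J it was 49.6% ± 0.218 on d15 and 60.1% ± 9.53 on d17. Among the Cip/Kip genes, Cdkn1a went from 1.47% ± 0.647 on d12 to 9.27% ± 1.74 on d17 in AKR/J, from 2.40% ± 0.569 to 12.3% ± 0.723 in C57BL/6J and from 2.38% ± 0.365 to 14.7% ± 2.57 in Cav1-null. No d12 library overlapped a d17 library in this share in any strain.

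**Figure D4:**
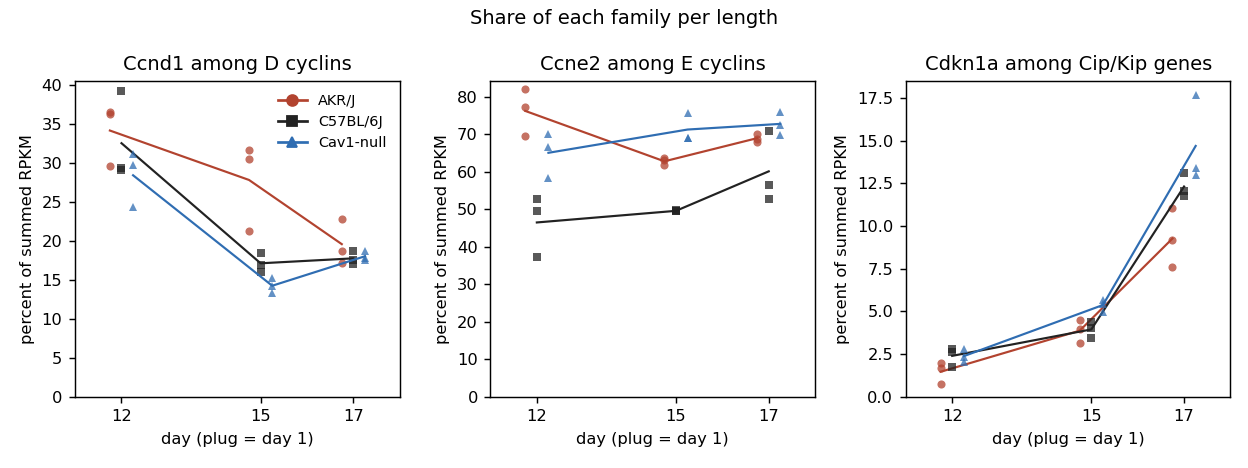
Share of summed RPKM within a family, in percent, by gestational day for Ccnd1 among 3 D cyclins, Ccne2 among 2 E cyclins and Cdkn1a among 3 Cip/Kip genes. Points are libraries and lines the means of 3. The Cdkn1a share is highest on d17 in each strain, and the Ccne2 share of AKR/J d12 lies between 69.4% and 81.9%.

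Other genes around the checkpoint moved in the same phases. Of 28 other genes of G1/S control, 26 or 27 were tested in each comparison, and 16, 17 and 17 were lower early in AKR/J, C57BL/6J and Cav1-null, with 3, 0 and 0 higher and medians of -0.74, -0.73 and -0.65 on the log2 scale. Late, 18, 15 and 18 were lower and 1, 0 and 3 higher, with medians of -0.47, -0.63 and -0.47, while the median over all genes lay between -0.04 and 0.03 in all 6. Cks1b, a CDK-binding subunit, fell most early in AKR/J (-2.52 ± 0.38, edgeR adjusted p = 0.00347) and C57BL/6J (-1.41 ± 0.21, edgeR adjusted p = 0.0179), and the replication licensing gene Cdc6 in Cav1-null (-1.52 ± 0.24, edgeR adjusted p = 0.00317). E2f8, a repressor of the E2F family, fell most late in each strain, at -1.44 ± 0.27 (edgeR adjusted p = 0.00777) in AKR/J, -1.95 ± 0.25 (edgeR adjusted p = 0.00697) in C57BL/6J and -1.12 ± 0.25 (edgeR adjusted p = 0.0042) in Cav1-null. The largest increases were those of Cdk6 early in AKR/J (1.03 ± 0.22, edgeR adjusted p = 0.0114), the pocket protein gene Rbl2 late in AKR/J (0.33 ± 0.09, edgeR adjusted p = 0.0282) and the cyclin E ubiquitin ligase subunit gene Fbxw7 late in Cav1-null (0.39 ± 0.08, edgeR adjusted p = 0.0033).

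Of 20 genes of S, G2 and M phase, between 18 and 20 were called lower in each of the 6 comparisons of days and 0 higher, with medians from -0.96 to -1.41 on the log2 scale. The summed level of this list was 2708 to 2882 CPM in AKR/J d12 and 484 to 731 CPM in AKR/J d17, 2470 to 3539 and 415 to 590 CPM in C57BL/6J, and 1550 to 2969 and 437 to 468 CPM in Cav1-null. Neural progenitor genes, 15 in all, were called lower in 5 to 12 cases and higher in 0 or 1, and postmitotic neuron genes, 16 in all, were called higher in 3 to 10 cases and lower in 0 or 1. In these whole-brain libraries, fewer cells of a type and less RNA per cell cannot be told apart.

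Other targets of p53 were counted beside Cdkn1a. Of 16 listed, 14 or 15 were tested, 0 to 2 were called higher and 1 to 3 lower in any comparison of days, with medians from -0.25 to 0.07. Of all genes, 7.08% to 14.8% were called higher and 5.58% to 14.0% lower in these comparisons. The list counts are near those shares and are not read as a result about p53 targets. Those with the largest increase were Plk2 early in AKR/J (0.61 ± 0.18, edgeR adjusted p = 0.0394) and C57BL/6J (0.53 ± 0.09, edgeR adjusted p = 0.0194), Ccng1 late in AKR/J (0.49 ± 0.13, edgeR adjusted p = 0.0308), Perp late in C57BL/6J (1.06 ± 0.21, edgeR adjusted p = 0.0209) and Phlda3 late in Cav1-null (0.66 ± 0.17, edgeR adjusted p = 0.0108). Gtse1, a G2 and S phase protein that restrains p53, had the largest decrease in all 6, from -0.90 ± 0.22 late in Cav1-null to -1.84 ± 0.30 late in C57BL/6J.

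The second question was how the short-lived strains differed from C57BL/6J on each day. The 2 comparisons on a day share the 3 C57BL/6J libraries. The 3 libraries of 2 groups did not overlap for 49.6%, 53.4% and 27.4% of all genes in AKR/J on d12, d15 and d17. These shares were 30.6%, 65.3% and 12.5% in Cav1-null on the same days. In AKR/J, 1 member was called higher on d12, where 14.5% of all genes were, and 0 lower, where 14.1% were (28.6% in either direction). On d15, 1 was higher (18.8% of all genes) and 1 lower (22.3%, 41.1% in either direction), and on d17 0 were called (0.742% of all genes). In Cav1-null, 0 members were called on d12 (0.0% of all genes), 1 was higher on d15 (26.8%) and 8 were lower (31.8%, 58.6% in either direction), and 0 were called on d17 (0.0491%). On d17 the AKR/J comparison held 0 members with an unadjusted edgeR p under 0.05, where 21.2% of all genes had one, and DESeq2 called 0 (5.82% of all genes). The Cav1-null comparison held 3, all lower (7.55%), with 0 by DESeq2 (0.2%). For Cav1-null on d12, 3 members, all lower, had an unadjusted edgeR p under 0.05, where 22.1% of all genes had one. DESeq2 called 2 members and 12.7% of all genes, the members being Ccnd1 (-0.85, adjusted p = 0.0141) and Ccne1 (-0.64, 0.0116).

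**Figure D5:**
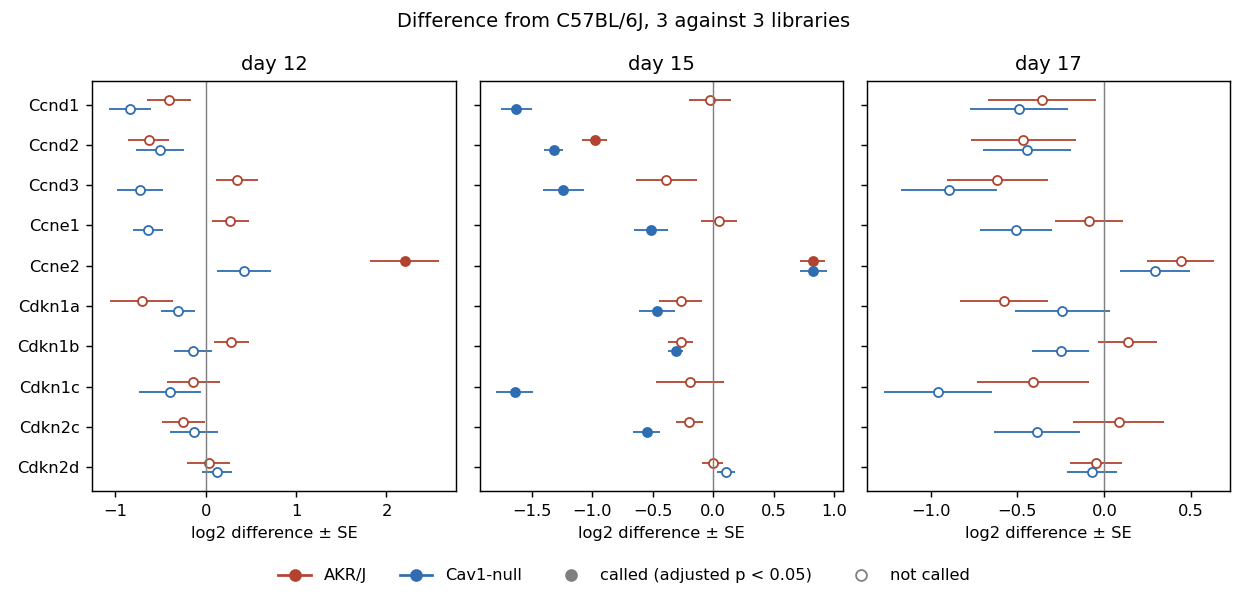
Log2 difference ± SE of AKR/J (red) and Cav1-null (blue) from C57BL/6J for the 10 members on d12, d15 and d17, 3 libraries against 3. Filled points passed the edgeR test and open points did not. Ccne2 is filled to the right of 0 for AKR/J on d12 and d15 and for Cav1-null on d15, and 8 members are filled to the left for Cav1-null on d15, of which Ccne1, Cdkn1a and Cdkn1b lose the call with library sizes alone.

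On d12 the member that differed was Ccne2, at 113 ± 47.2 CPM in AKR/J and 26.9 ± 9.67 CPM in C57BL/6J (SD, n = 3), a log2 difference of 2.20 ± 0.38 (edgeR adjusted p = 0.0115). All 3 AKR/J libraries were higher than all 3 of C57BL/6J, where 49.6% of all genes had no overlap in either direction. Without C57BL/6J d12 replicate 2, the lowest library at 16.6 CPM, the difference was 1.92 (edgeR adjusted p = 0.0622). The AKR/J d12 libraries also carried erythroid sums of 101700, 33320 and 198000 CPM in replicates 1 to 3, against 1976 to 4753 CPM in C57BL/6J d12, and sums of 16 neuron genes of 2158 to 2730 against 3909 to 6734 CPM. The summed level of 15 trophoblast and decidua genes was 781, 85.3 and 39.7 CPM in the same 3 libraries against 5.83 to 94.8 CPM in C57BL/6J d12, and that of 12 yolk sac genes 2052, 275 and 58.7 against 92.5 to 274 CPM. Leaving the erythroid, placental and yolk sac marker genes out of the scaling gave 2.20 (edgeR adjusted p = 0.0111), and the part of RNA from such cells in the Ccne2 level was not tested. Mitochondrial genes took 9.595%, 3.98% and 6.66% of the reads in AKR/J d12 replicates 1 to 3, the order of their Ccne2 levels, against 1.15% to 1.79% in C57BL/6J d12, and the part of this in the Ccne2 level was not tested either. In the same comparison Cks1b was 1.98 ± 0.41 (edgeR adjusted p = 0.0134) and the mitotic gene Birc5 1.42 ± 0.29 (edgeR adjusted p = 0.0132), the largest increases of their lists, while 4 of 27 G1/S genes and 4 of 20 genes of S, G2 and M phase were called higher and 2 of each lower. Of all genes, 14.5% were called higher and 14.1% lower there, so these counts are not read as a rise of either list.

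Ccne2 was also higher on d15, where the erythroid sums were 2039 to 3114 CPM in AKR/J, 2930 to 3637 in Cav1-null and 863 to 1103 in C57BL/6J, and mitochondrial genes took 2.26% to 2.69%, 3.18% to 3.71% and 1.21% to 1.31% of the reads in the same order of strains. The d15 libraries held 22.7, 25.8 and 23.9 CPM in AKR/J, 23.3, 23.2 and 27.9 CPM in Cav1-null and 15.2, 13.7 and 14.2 CPM in C57BL/6J. The log2 difference from C57BL/6J was 0.82 ± 0.11 (edgeR adjusted p = 0.000944) for AKR/J and 0.83 ± 0.11 (edgeR adjusted p = 8.64e-05) for Cav1-null, with no overlap in either, and both calls held when any one library was left out. Of all genes, 53.4% and 65.3% had no overlap in these comparisons. On d17 the differences were 0.44 ± 0.19 (edgeR adjusted p = 0.236) and 0.29 ± 0.20 (edgeR adjusted p = 0.586), without a call. The AKR/J one passed without C57BL/6J d17 replicate 2 (0.68, edgeR adjusted p = 0.011), a library that lay at 19.0 CPM against 12.0 and 13.0 in its group and had a mitochondrial share of 4.43% against 1.53% and 2.47%.

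Ccnd2 was the member called lower in AKR/J on d15. Its d15 libraries held 298, 237 and 278 CPM in AKR/J, 234, 215 and 205 CPM in Cav1-null and 576, 599 and 506 CPM in C57BL/6J. Every library of either strain was below every C57BL/6J library, at -0.98 ± 0.10 (edgeR adjusted p = 0.000447) for AKR/J and -1.32 ± 0.08 (edgeR adjusted p = 2.79e-07) for Cav1-null. Such a separation, in either direction, was seen for 53.4% and 65.3% of all genes in these comparisons. The d12 difference of AKR/J was -0.63 ± 0.23 (edgeR adjusted p = 0.0684), which was a call by DESeq2 (adjusted p = 0.0285), by the likelihood ratio test (0.0389), with library sizes alone (0.0443), with all 27 libraries in 1 model (0.00937) and without AKR/J d12 replicate 2 (0.0238), and that of Cav1-null -0.51 ± 0.26 (edgeR adjusted p = 0.296).

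In Cav1-null on d15, 9 of 10 members were called against a background of 58.6% of all genes. Ccnd1 was at 19.9 ± 2.85 CPM against 63.3 ± 8.37 CPM, a log2 difference of -1.63 ± 0.13 (edgeR adjusted p = 1.74e-06), and Cdkn1c at 31.9 ± 3.92 against 102 ± 22.7 CPM, a difference of -1.64 ± 0.15 (edgeR adjusted p = 6.46e-06). Ccnd3 was -1.24 ± 0.17 (edgeR adjusted p = 0.000107) and Ccne1 -0.51 ± 0.14 (edgeR adjusted p = 0.0101). Among the other inhibitors, Cdkn2c was -0.55 ± 0.11 (edgeR adjusted p = 0.00172), Cdkn1a -0.47 ± 0.15 (edgeR adjusted p = 0.019) and Cdkn1b -0.31 ± 0.06 (edgeR adjusted p = 0.00107). Cdkn2d, the member without a call, was 0.11 ± 0.08 (edgeR adjusted p = 0.258), which became a call for a higher level (0.29, adjusted p = 0.00819) with library sizes alone.

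Beside these members, 14 of 15 neural progenitor genes were called lower in Cav1-null on d15 and 1, Fabp7, higher, and 13 of 20 genes of S, G2 and M phase were called lower and 2 higher. The lists of other cell types moved in either direction in the same comparison, with 8 of 10 blood vessel genes called lower and 1 higher (median -1.53), 5 of 6 genes of the oligodendrocyte lineage lower and 1 higher (-1.19), 6 of 11 connective tissue genes lower and 0 higher (-2.24), 4 of 7 astrocyte genes lower and 1 higher (-0.985), 4 of 9 choroid plexus genes lower and 1 higher (-0.40) and 10 of 16 neuron genes lower and 4 higher (-0.27). Of the erythroid list 6 of 14 were called higher and 3 lower (0.51), of microglia 4 of 9 higher and 2 lower (0.19), and of yolk sac endoderm 2 of 9 higher and 1 lower (0.195). Skeletal muscle had 1 of 9 called lower and trophoblast and decidua 1 of 2, with 0 higher in both. Of all genes, 26.8% were called higher and 31.8% lower in this comparison. The medians were -1.15 for the progenitor list, -0.53 for the members and 0.03 for all genes. Nes, an intermediate filament gene of progenitors, was -2.43 ± 0.08 (edgeR adjusted p = 1.5e-08) and the licensing gene Mcm2 -2.05 ± 0.11 (edgeR adjusted p = 1.1e-07). The C57BL/6J d15 replicate 1 library, with its connective tissue sum of 5746 CPM, was the highest of its group for Ccnd1, Ccnd3, Ccne1, Ccne2, Cdkn1a and Cdkn1c. Without it Ccnd1 was -1.52, Ccnd3 -1.03, Ccne1 -0.46, Ccne2 0.88 and Cdkn1c -1.44, all still called, and the Cdkn1a call was lost (-0.34, edgeR adjusted p = 0.0523). The Cdkn1a call was also lost without Cav1-null d15 replicate 3 (-0.37, adjusted p = 0.0712). With library sizes alone the calls of Ccne1, Cdkn1a and Cdkn1b were lost (edgeR adjusted p = 0.066, 0.119 and 0.0675), and with all 27 libraries in 1 model those of Cdkn1a, Cdkn1b and Cdkn2c (0.131, 0.1 and, after rounding, 0.05).

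On d17, leaving out 1 C57BL/6J library changed several calls. Replicate 2 held 13.3 CPM of Ccnd1 against 31.9 and 23.0 in the other libraries, 111.7 against 235 and 184 CPM of Ccnd2, and 19.8 against 50.2 and 45.2 CPM of Cdkn1c. Without it 4 members were called in each comparison, where 26.4% of all genes were called for AKR/J and 13.6% for Cav1-null. In AKR/J these were Ccnd3 (-0.86, edgeR adjusted p = 0.0137), Cdkn1a (-0.80, 0.00847) and Cdkn1c (-0.70, 0.0159), all lower, and Ccne2, higher. In Cav1-null they were Ccnd1 (-0.78, 0.0251), Ccnd2 (-0.70, 0.0248), Ccnd3 (-1.17, 0.0217) and Cdkn1c (-1.28, 0.00449), all lower.

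The third question was whether the change between 2 days itself differed between strains, tested as the interaction of strain and day over 12 libraries. None of the 10 members was called by edgeR in any of the 4 tests, where 0.0711%, 0.00468%, 0.00472% and 0.252% of all genes were called for AKR/J early, AKR/J late, Cav1-null early and Cav1-null late. With an unadjusted edgeR p under 0.05 there were 2, 1, 3 and 3 members, beside 16.3%, 7.57%, 15.0% and 21.9% of all genes. DESeq2 called 1, 0, 0 and 1, beside 4.75%, 0.159%, 3.16% and 6.05% of all genes. Early in AKR/J the 2 were Ccne2 (-1.36 ± 0.43, edgeR adjusted p = 0.168), which DESeq2 called (adjusted p = 0.0426), and Cdkn1b (-0.53 ± 0.22, edgeR adjusted p = 0.256). The Ccne2 interaction was called by edgeR without AKR/J d12 replicate 2 (-1.65, adjusted p = 0.0129), a fit that called 14.8% of all genes. Late in AKR/J it was Cdkn1b in the opposite direction (0.47 ± 0.21, edgeR adjusted p = 0.648).

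For Cav1-null the early 3 were Ccnd1 (-0.78 ± 0.29), Ccnd2 (-0.81 ± 0.30) and Cdkn1c (-1.23 ± 0.43), all with a more negative change in Cav1-null than in C57BL/6J, and with an edgeR adjusted p of 0.246 to 0.26. The late 3 were Ccnd1 (1.08 ± 0.34), which DESeq2 called (adjusted p = 0.03), Ccnd2 (0.83 ± 0.29) and Ccne2 (-0.59 ± 0.23). Those 3 were called by edgeR without C57BL/6J d17 replicate 1 (adjusted p = 0.00142, 0.0023 and 0.0459), a fit that called 26.1% of all genes.

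Finally, the genes whose log2(CPM + 1) ran closest to each member over the 27 libraries were listed from 11470 genes with a mean log2 CPM of at least 3, as a description, since all 27 libraries share the days and strains. Ccnd1 ran closest to Nrarp, a Notch target (Pearson r = 0.978), and Pbx2 (0.978), and Ccnd2 to Rcc2 (0.975) and G3bp1 (0.970). Ccnd3 ran with Tcn2 (0.972) and Erbb2 (0.962), and Ccne1 with Hmg20b (0.982) and Reep4 (0.976). Ccne2 ran with Cenpq, a centromere protein gene, and Haus3, a subunit of the spindle augmin complex (0.987 each). Cdkn1c ran with Vim, an intermediate filament gene (0.972), and Nxn (0.970), and Cdkn2c with the proneural gene Neurog2 (0.943) and Taf5l (0.929). Lower values were found for Cdkn1a with Paqr7 (0.932) and Gas6 (0.924), for Cdkn1b with Marchf5 (0.918) and Ythdf2 (0.900), and lowest for Cdkn2d with Rab1a (0.813) and Pebp1 (0.773).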

How the data were processed

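Counts of reads per gene and per splice junction were used as deposited. The authors trimmed the paired reads with cutadapt and fastp and mapped them with STAR to GRCm39. For junctions they applied Ensembl annotation and removed multi-mapped or thinly covered junctions, so a 0 is not read as absence. The counting tool, its strand setting and versions are not given in the sources used here. All 10 members overlap other annotated genes, mostly on the opposite strand, and reads of such pairs could be mixed in gene counts made without regard to strand.

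Groups followed the labels. Each comparison of 2 groups (6 libraries) was fitted with edgeR 4.0.16 (R 4.3.3; filterByExpr, TMM, glmQLFit, glmQLFTest), and interactions over 12 libraries, with Benjamini-Hochberg adjustment over all genes tested. CPM used TMM-scaled library sizes, and RPKM the exon union of GENCODE M39. Each SE was worked back from the edgeR test, as the absolute log2 change over the square root of its F statistic. Members, gene lists and tests were chosen with earlier results of these data known. Named genes were all members, the called gene with the largest increase and decrease of each list, and the 2 genes closest to each member. Alternatives were edgeR's likelihood ratio test, DESeq2 1.42.0, RLE or no scaling, no filter on low counts or one of 10 reads in each library, the 27 libraries fitted as 1 model, the replicate number as a block, marker genes of blood, placenta and yolk sac left out, and the omission of single libraries. The fits were tested on simulated data. Replicates differed by 5.53 to 339.76 times the sampling noise (chi-square per degree of freedom), so none was a duplicate. Splice windows were read from GRCm39 at the deposited junction coordinates, and all 28 junctions of 7 members began with GT and ended with AG. No junction of Cdkn1a, Cdkn1b or Cdkn2c was found among the deposited junctions, which the authors had filtered. Promoters and proteins were not analysed here.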

Additional observations from a re-analysis of the deposited data

How the results depend on the processing

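Over 2640 values of single members under an alternative, 2498 kept their side of the threshold, 77 lost a call, 65 gained one and 0 changed sign with a call. Of the 2498, 107 changed sign without a call in either setting. The counts of called members that moved by more than 1.5 times were these, each with the share of all genes called in the same fit, and their causes were not tested. With library sizes alone, early AKR/J gave 2 (24.1%) and AKR/J on d12 gave 2 (23.4%), and the median of all genes moved from 0.02 to 0.46 and from 0.02 to -0.38 on the log2 scale. It also moved from 0.03 to 0.17 in late C57BL/6J, from 0.06 to 0.23 for AKR/J on d15, from 0.03 to 0.22 for Cav1-null on d15, and in the interactions from 0.03 to 0.58 (early AKR/J), 0.02 to -0.19 (late AKR/J) and -0.05 to -0.15 (late Cav1-null). With all 27 libraries in 1 model, late C57BL/6J gave 7 (19.6%), late Cav1-null 2 (3.56%), AKR/J on d12 3 (47.0%), Cav1-null on d12 2 (7.44%) and the early AKR/J interaction 1 (7.12%). AKR/J on d12 gave 2 by the likelihood ratio test (34.1%) and 2 by DESeq2 (28.4%). Cav1-null on d12 gave 1 by the likelihood ratio test (6.52%), 2 by DESeq2 (12.7%) and 1 with no filter on low counts (2.16%). The early AKR/J interaction gave 1 by DESeq2 (4.75%), and the late Cav1-null interaction 1 by the likelihood ratio test (5.83%), 1 by DESeq2 (6.05%) and 2 with no filter (2.61%).

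Leaving out 1 library each, the counts ran from 2 to 6 in early AKR/J (12.4% to 43.5% of all genes), 2 to 5 in late AKR/J (7.58% to 23.3%), 0 to 3 in early C57BL/6J (0.0% to 29.8%), 0 to 6 in late C57BL/6J (0.767% to 33.2%), 3 to 9 in early Cav1-null (11.2% to 35.9%) and 6 to 8 in late Cav1-null (18.9% to 25.5%). Against C57BL/6J they ran from 0 to 2 (0 without C57BL/6J d12 replicate 2, with 0.122% of all genes called), 2 to 3 (28.2% to 37.9%) and 0 to 4 (4 without C57BL/6J d17 replicate 2, with 26.4%) for AKR/J on d12, d15 and d17, and were 0, 8 to 9 (49.8% to 53.7%) and 0 to 4 (4 without the same library, with 13.6%) for Cav1-null. The interactions gave 0 to 1 (1 without AKR/J d12 replicate 2, with 14.8% of all genes called), 0, 0 and 0 to 3 (3 without C57BL/6J d17 replicate 1, with 26.1%).

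The labels number the replicates 1 to 3 in each group, but the numbers did not pair the samples, which are different fetuses: in 0 of 12 comparisons did all 3 same-numbered pairs deviate together with a correlation over 0.1. With the replicate block, early C57BL/6J gave 0 members in place of 2 (0.0% of all genes), late AKR/J 4 in place of 6 (16.3%), late C57BL/6J 5 in place of 4 (11.9%) and early Cav1-null 4 in place of 6 (17.0%).

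The members' junction reads had a median of 610.5 CPM of all junction reads, 600.0 when counted for each transcript, and 67.0 when scaled to reads on genes, a different denominator. The fewest reads of a member in a library were 93, of Cdkn1a.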

Other observations

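Cell type genes beside the members moved with the same days. Neurog2, the proneural gene closest to Cdkn2c in its course, was -2.61 ± 0.24 (edgeR adjusted p = 0.00375) late in C57BL/6J and -2.19 ± 0.12 (edgeR adjusted p = 4.31e-07) late in Cav1-null, the largest decreases of the progenitor list there. Hes5, a Notch effector of progenitors, was -2.07 ± 0.32 (edgeR adjusted p = 0.00356) early in AKR/J and -1.78 ± 0.26 (edgeR adjusted p = 0.0178) early in C57BL/6J. Fabp7, a lipid-binding protein of radial glia, was 1.04 ± 0.19 (edgeR adjusted p = 0.00688) late in AKR/J and 1.31 ± 0.30 (edgeR adjusted p = 0.0321) late in C57BL/6J, while in Cav1-null it was 0.48 ± 0.12 (edgeR adjusted p = 0.0189) early and 0.07 ± 0.12 (edgeR adjusted p = 0.708) late, and it was higher than in C57BL/6J on d15 by 0.88 ± 0.12 (edgeR adjusted p = 0.0012) in AKR/J and 1.51 ± 0.08 (edgeR adjusted p = 1.58e-07) in Cav1-null. Slc1a3, a glial glutamate transporter, rose by 1.66 ± 0.19 (edgeR adjusted p = 0.00139) early in AKR/J and 0.53 ± 0.09 (edgeR adjusted p = 0.000545) late in Cav1-null. Fabp7 and Slc1a3 ran against their list here. In each comparison of days where either was called higher, all other calls of the progenitor list were decreases.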
